A study of Mus musculus with 63 samples.

Results

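The hearts of 2 inbred mouse strains, labelled AJ and B6, were compared by RNA-seq. All 8 libraries labelled AJ and all 8 labelled B6 were used, which is 16 of the 63 heart libraries of a study of 8 inbred strains, the founders from which Diversity Outbred mice were bred. The AJ and B6 mice, like the mice of the other 6 strains (129, Cast, NOD, NZO, PWK and WSB), were fed a diet high in fat and sugar with 45% fat, so no AJ or B6 heart on another diet was compared. The labels give no sex or age, and each library was taken as 1 mouse from its own identifier. Values are CPM, a gene's counts per M (mega) counts of its library, scaled between libraries by the TMM method. Errors of group means are SD over 8 libraries, and a log2 fold change is AJ over B6 with its SE. A gene is said to differ where edgeR's quasi-likelihood test gave a Benjamini-Hochberg adjusted p under 0.05 over all genes tested.

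Cardiomyocytes draw most of their energy from fatty acids burnt in mitochondria and keep glycolysis as a smaller source. When the heart muscle is loaded or injured, it is known to turn on natriuretic peptides and the skeletal form of alpha-actin, the genes usually read as a stress or fetal programme. Inbred strains differ in such programmes through inherited variants, and AJ and B6 are a much used pair: stocks of the AJ strain are known for an insertion in Dysf, the gene of dysferlin, a protein that reseals torn membranes, and B6 stocks of the J line for a deletion in Nnt, which encodes the transhydrogenase of the inner mitochondrial membrane.

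These genes and the libraries were checked first. Dysf ran from 36.2 to 41.8 CPM (median 39.1) in AJ hearts, against 67.7 to 79.4 CPM (median 75.7) in B6 hearts. Nnt ran from 627 to 768 CPM (median 749.5) in AJ hearts, against 392 to 487 CPM (median 445) in B6 hearts. For both genes the groups did not overlap, and the log2 fold changes were -0.94 ± 0.07 for Dysf (adjusted p = 1.16e-16) and 0.73 ± 0.14 for Nnt (adjusted p = 1.55e-05). Nnt shares 47.4% of its exon bases with another entry of the same name in GENCODE M21, which is not among the genes counted. Glo1, the glyoxalase gene that is known to be duplicated in the AJ strain, was at 259 to 275 CPM in AJ, against 70.6 to 80.9 CPM in B6 (1.79 ± 0.07, adjusted p = 5.99e-32). AJ libraries held 28.4 to 42.9 M estimated counts and B6 libraries 24.7 to 32 M. The transcript Xist and the Y-linked gene Ddx3y, both named after their values were seen, separated replicates 1 to 4 from replicates 5 to 8 in the same way in both strains. Xist was at 336 to 424 CPM in AJ replicates 1 to 4 and 0.848 to 1.23 CPM in AJ replicates 5 to 8, against 343 to 416 CPM in B6 replicates 1 to 4 and 0.328 to 1.02 CPM in B6 replicates 5 to 8. Each strain holds 4 libraries of either kind, and the strain differences were recomputed within replicates 1 to 4 and within replicates 5 to 8. Replicate 7 of B6 stood apart in clock genes, and replicates 2, 7 and 8 of AJ were low in B cell genes; both are given beside the results they touch.

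Strain was the main axis of variation. The first principal component of the 16 libraries held 40.8% of the variance and placed all 8 AJ libraries on the side opposite to all 8 B6 libraries. Of 16425 genes tested, 4870 differed (29.6%), 2465 of them higher in AJ (15%) and 2405 lower in AJ (14.6%). Most differences were small: the median size of the log2 fold change was 0.47 among the genes that differed and 0.19 over all genes tested, and 500 genes were at least 2-fold higher and 525 at least 2-fold lower in AJ. In 1199 of the genes that differed, every AJ library lay above every B6 library (7.3% of genes tested). In another 1096 every AJ library lay below (6.67%). These counts, and those of list members without overlap, leave out genes that did not pass the test. The median log2 fold change over all genes was -0.0014, so the list medians below can be read against a centre near 0. A fit of the 16 AJ and B6 libraries alone, which takes the spread from these strains and not from all 8, called 6932 genes (42.2%), 3639 of them higher (22.2%) and 3293 lower (20%). Counts of gene lists that it moved by over 1.5 times are given beside the lists as those of the 16-library fit. Among the 28 pairs of the 8 strains, AJ and B6 ranked 9th from the fewest genes that differed.

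The stress genes of the heart muscle were higher in AJ. Of 18 tested members of a list of cardiac stress and fetal genes, 12 were higher in AJ, 1 was lower and 5 did not pass, with a median log2 fold change of 0.54. Among all genes tested, 15% were higher and 14.6% lower. In 10 members every AJ library lay above every B6 library (all genes, 7.3%) and in 1 every AJ library lay below (all genes, 6.67%). Acta1, the skeletal alpha-actin gene (ENSMUSG00000031972, chromosome 8, 123891767 to 123894736, minus strand), ran from 1193 to 2362 CPM (median 1579) in AJ hearts, against 93.5 to 163 CPM (median 124) in B6 hearts. The lowest AJ heart was therefore above the highest B6 heart by a wide margin, and the log2 fold change was 3.69 ± 0.27 (adjusted p = 1.2e-17). The gene of the natriuretic peptide BNP, Nppb (ENSMUSG00000029019, chromosome 4, 147985788 to 147987205, plus strand), ran from 232 to 413 CPM (median 275) in AJ hearts, against 44.9 to 88.4 CPM (median 66.6) in B6 hearts, a log2 fold change of 2.07 ± 0.26 (adjusted p = 2.46e-09). Ankrd1, a stretch-responsive ankyrin repeat protein of the sarcomere and nucleus (ENSMUSG00000024803, chromosome 19, 36111965 to 36119844, minus strand), ran from 1532 to 2340.0 CPM (median 1774) in AJ hearts, against 474 to 597 CPM (median 527) in B6 hearts, a log2 fold change of 1.77 ± 0.17 (adjusted p = 2.89e-13). Ctgf, a matrix-associated growth factor, was at 177 to 257 CPM in AJ, against 63.6 to 108 CPM in B6 (adjusted p = 1.62e-07). None of these 4 genes overlapped between the strains.

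**Figure D1:**
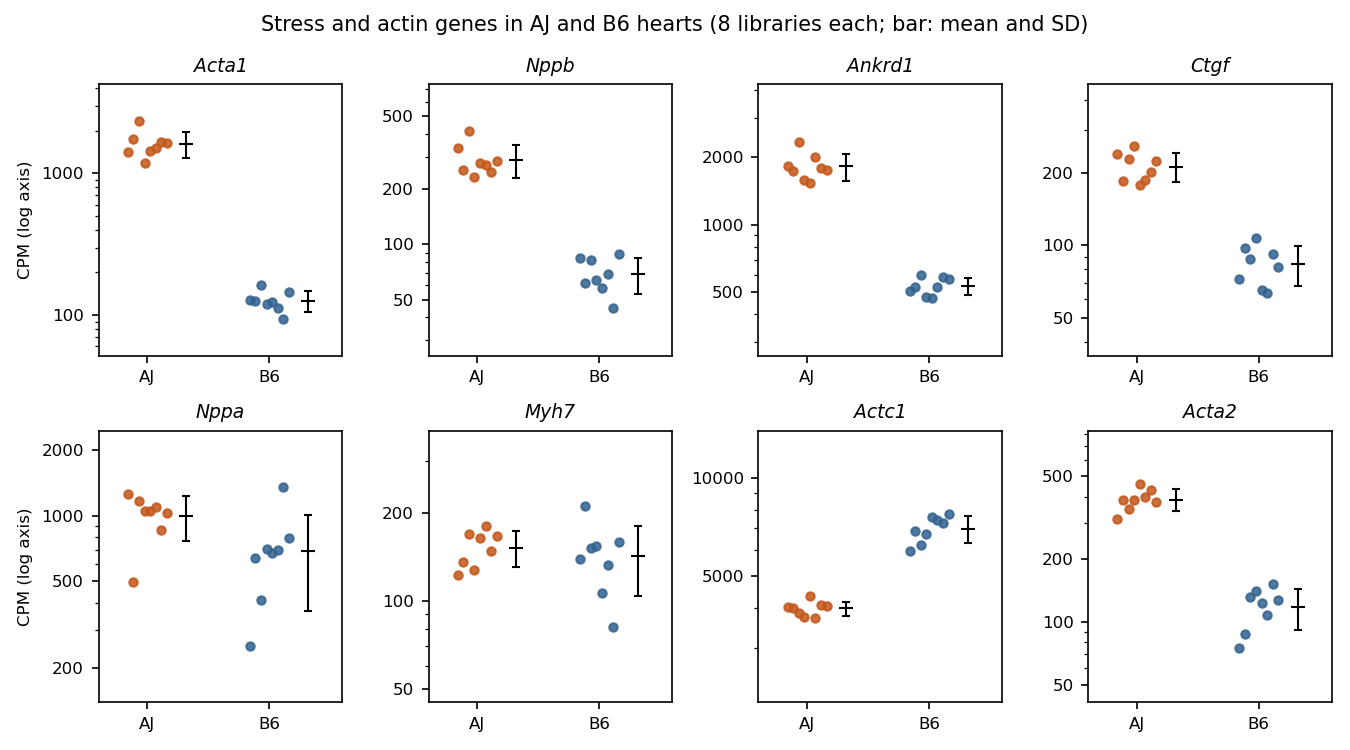
CPM of 8 stress and actin genes in each AJ and B6 library on log axes, with points for libraries and bars for mean and SD. Acta1, Nppb, Ankrd1, Ctgf and Acta2 were higher in every AJ heart, Actc1 was lower in every AJ heart, and Nppa and Myh7 overlapped.

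The list did not move as a block. Nppa, which encodes the natriuretic peptide ANP, ran from 494 to 1254 CPM (median 1051) in AJ hearts, against 253 to 1358 CPM (median 687) in B6 hearts. The groups overlapped, the log2 fold change of 0.54 ± 0.21 only just passed (adjusted p = 0.0468), and the call was lost in 12 of the 16 fits that left out 1 library (log2 fold changes 0.41 to 0.54 in these, adjusted p up to 0.127). Myh7, the slow myosin heavy chain of the fetal ventricle, was at 123 to 180.0 CPM in AJ, against 81.7 to 212 CPM in B6 and did not pass (adjusted p = 0.872); the near-identical Myh6, the adult chain, was at 28776 to 35174 CPM in AJ, against 27912 to 31282 CPM in B6 (adjusted p = 0.311), and their summed counts gave 0.12 on the log2 scale (adjusted p = 0.311). Myh6 did not pass in 27 of the other settings tried and was higher in the rest. Uchl1, a ubiquitin hydrolase, was lower at 1.76 to 2.89 CPM in AJ, against 2.94 to 5.58 CPM in B6 (adjusted p = 3.83e-06). Smaller rises with no overlap were seen for Nmrk2, a nicotinamide riboside kinase (1.11 on the log2 scale, adjusted p = 0.000578), Xirp1, an actin-binding protein of the intercalated disc (0.56, adjusted p = 0.00311), and Enah, an actin regulator (0.52, adjusted p = 3.05e-06). Whether strand was used in counting is not given in the sources used here. Of the exon bases of Nppa 61.5% lie opposite another gene, as do 23.2% of those of Ctgf. Among genes named below, so do 62.4% of those of Tagln, 23.1% of Mpc1, 31.1% of Kcnj3, 29.4% of H2-T22 and 27.1% of H2-T10. Without strand the reads of such pairs cannot be told apart.

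Promoters were read for the stress genes because Acta1, Nppb and Ankrd1 moved together. The motif MCAT (CATTCC, or GGAATG on the other strand) is the binding motif of the TEAD factors, and the CArG box is that of serum response factor; both were chosen after the values were seen. The 250 bases before the RefSeq start (GRCm38.p6) are shown in transcript direction with MCAT and, in Acta1, the CArG box in capitals, for Acta1 (chr8:123894776-123895025, minus strand), Nppb (chr4:147985650-147985899, plus strand) and Ankrd1 (chr19:36119845-36120094, minus strand).
Acta1: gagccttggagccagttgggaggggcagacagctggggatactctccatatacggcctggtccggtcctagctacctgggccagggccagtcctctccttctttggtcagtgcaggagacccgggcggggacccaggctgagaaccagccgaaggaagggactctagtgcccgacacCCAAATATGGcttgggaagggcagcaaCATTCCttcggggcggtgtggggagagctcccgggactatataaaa
Nppb: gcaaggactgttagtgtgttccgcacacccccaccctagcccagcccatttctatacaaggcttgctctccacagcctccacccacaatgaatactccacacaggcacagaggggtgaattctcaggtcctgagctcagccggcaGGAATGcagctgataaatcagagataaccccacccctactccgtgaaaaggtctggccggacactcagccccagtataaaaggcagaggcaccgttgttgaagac
Ankrd1: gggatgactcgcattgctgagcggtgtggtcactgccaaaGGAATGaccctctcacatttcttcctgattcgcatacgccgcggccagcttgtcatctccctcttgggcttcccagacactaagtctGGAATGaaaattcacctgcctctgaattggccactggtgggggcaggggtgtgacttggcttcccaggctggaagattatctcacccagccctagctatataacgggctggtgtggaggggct
Of the 12 members that were higher in AJ, 9 had a promoter in the table. MCAT was in 3 of these 9, which are Acta1, Nppb and Ankrd1, the genes that prompted its choice, so its share among the members restates that choice. It was in 12.6% of all 27025 promoters. The CArG box was in 2 of the 9, Acta1 and Fhl1, and in 1.4% of all promoters. The Nppb window runs past the gene start given above for Nppb, and its MCAT lies on the gene side of that start. RefSeq places the start of Nppb further downstream. A match only describes the letters in the window, and both strains are read here from the same reference sequence.

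In the sarcomere, the actins moved in opposite directions. Of 30 sarcomere genes, 8 were higher in AJ, 3 lower and 19 did not pass, so that 36.7% differed, against 29.6% of all genes; 13 were higher in the 16-library fit. Actc1, the cardiac alpha-actin and the main actin of the adult heart, ran from 3719 to 4337 CPM (median 4005) in AJ hearts, against 5960.4 to 7749.5 CPM (median 7078) in B6 hearts, a log2 fold change of -0.81 ± 0.12 (adjusted p = 2.29e-07). Every AJ heart was thus below every B6 heart for Actc1 and above every B6 heart for Acta1. Acta2, the smooth muscle actin, was at 311 to 458 CPM in AJ, against 74.9 to 152 CPM in B6 (1.71 ± 0.16, adjusted p = 6.79e-14), whereas Myh11 and Tagln, other smooth muscle genes, did not pass (0.30 and 0.622, adjusted p). Myom1, which encodes the M-band protein myomesin, was lower in AJ with no overlap (1248 ± 28.8 CPM in AJ, against 1774 ± 55.2 CPM in B6; adjusted p = 1.71e-10). Tnnc1, the cardiac troponin C gene, was higher with no overlap (1473 ± 95.4 CPM in AJ, against 1014 ± 42.7 CPM in B6; adjusted p = 1.08e-07), as was Mybpc3, the cardiac myosin-binding protein C (3561 ± 117 CPM in AJ, against 2858 ± 153 CPM in B6; adjusted p = 0.00175).

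Genes of membrane repair, to which Dysf belongs, moved in both directions. Of 22 genes for membrane repair and the dystrophin complex, 3 were higher in AJ, 4 lower and 15 did not pass (31.8% differed, against 29.6% of all genes). In the 16-library fit 7 were higher and 6 lower (59.1%, against 42.2% of all genes). Sgca, which encodes alpha-sarcoglycan, was higher (113 ± 6.45 CPM in AJ, against 66.1 ± 2.93 CPM in B6; log2 fold change 0.77 ± 0.07, adjusted p = 4.0e-15), while Sgcb, beta-sarcoglycan of the same complex, was lower (121 ± 4.98 CPM in AJ, against 150.5 ± 3.94 CPM in B6; adjusted p = 0.00694). Anxa6, an annexin recruited to membrane lesions, was lower (-0.27, adjusted p = 0.00476), and Cav3, the caveolin of muscle, was higher (0.31, adjusted p = 0.00439).

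Ion channel genes differed in both directions: of 30 channels and connexins, 8 were higher in AJ, 10 lower and 12 did not pass (60% differed, against 29.6% of all genes). Cacna1h, the T-type calcium channel Cav3.2 (ENSMUSG00000024112, chromosome 17, 25374285 to 25433783, minus strand), ran from 1.87 to 2.85 CPM (median 2.29) in AJ hearts, against 15.3 to 34.5 CPM (median 27.6) in B6 hearts. The highest AJ value was below the lowest B6 value, and the log2 fold change was -3.53 ± 0.18 (adjusted p = 4.57e-25). Cacna1g, the other T-type channel of the heart, was at 23.9 to 29 CPM in AJ, against 19.8 to 24.5 CPM in B6 and was slightly higher (0.29, adjusted p = 0.0198). Scn4a, the sodium channel of skeletal muscle, ran from 6.61 to 13.5 CPM (median 8.77) in AJ hearts, against 47.4 to 69.2 CPM (median 61.5) in B6 hearts, a log2 fold change of -2.70 ± 0.19 (adjusted p = 1.23e-18). Scn4b, a beta subunit of cardiac sodium channels, went the other way at 141 to 174 CPM in AJ, against 54.4 to 79.9 CPM in B6 (1.19 ± 0.22, adjusted p = 1.18e-05), and the groups did not overlap for it or for Scn4a.

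Pacemaker and potassium channels also split. Hcn2, a pacemaker channel of the ventricle, was at 21.6 to 33.2 CPM in AJ, against 10.8 to 17.5 CPM in B6 (1.01, adjusted p = 2.23e-07), whereas Hcn4, the main pacemaker channel of the sinus node, was lower and overlapped (2.93 to 5.6 CPM in AJ, against 3.37 to 7.76 CPM in B6; -0.72, adjusted p = 0.0201). Kcnip2, the partner of the transient outward channels, and Kcne1, the partner of the slow delayed rectifier, were higher (0.57 and 1.04 on the log2 scale, adjusted p of 5.35e-06 and 0.000625). Kcnj2 and Kcnj3, inward rectifier channels of ventricle and atrium, were lower (-0.49 and -0.61, adjusted p of 0.0191 and 5.28e-05), with some overlap of libraries.

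Receptors and calcium handling followed. Among 25 natriuretic, angiotensin, endothelin and adrenergic genes, 8 were higher in AJ and 6 lower (56% differed, against 29.6% of all genes). The endothelin receptor genes Ednra and Ednrb were higher without overlap: Ednra was at 79.7 to 87.3 CPM in AJ, against 35.7 to 50.3 CPM in B6 (adjusted p = 4.33e-06), and Ednrb had a log2 fold change of 0.66 ± 0.11 (adjusted p = 2.32e-06). Adcy5, an adenylyl cyclase of the heart muscle, was also higher (0.62, adjusted p = 4.15e-07). The adrenergic receptor genes Adra1a, Adra1b and Adrb1 were lower without overlap. Adra1a ran from 8.9 to 21.7 CPM (median 14.7) in AJ hearts, against 27.2 to 42.6 CPM (median 31.1) in B6 hearts (-1.11 ± 0.19, adjusted p = 4.79e-06). Adra1b changed by -0.57 (adjusted p = 0.0163) and Adrb1 by -0.54 (adjusted p = 0.00347). Agtr1a, the angiotensin receptor, was lower with overlap (-0.60, adjusted p = 0.000298). Of 18 calcium handling genes, 4 were higher and 1 lower (27.8% differed, against 29.6% of all genes). The lower count was 0 without AJ replicate 8 or B6 replicate 3, 4 or 6, and the 16-library fit gave 8 higher and 3 lower (61.1%, against 42.2% of all genes). Casq1, the calsequestrin of skeletal muscle, was at 10.6 to 22.1 CPM in AJ, against 4.62 to 7.89 CPM in B6 (1.38 ± 0.16, adjusted p = 3.26e-10), and Camk2d, a calcium-dependent kinase, was 1.43-fold the B6 level (adjusted p = 5.14e-07). Atp2a2, the calcium pump of the sarcoplasmic reticulum, lay lower in every AJ heart (11421 to 13530.3 CPM in AJ, against 14654 to 15915 CPM in B6) without passing the test (adjusted p = 0.11). It did not pass in 26 of the other settings tried and was lower in the rest.

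Genes of glucose use that passed the test were higher in AJ. Of 31 genes for glucose uptake, glycogen and glycolysis, 14 were higher (all genes, 15%), none was lower and 17 did not pass. The median log2 fold change was 0.22, and in all 14 every AJ heart was above every B6 heart (all genes, 7.3%). Without AJ replicate 3, 4 or 6 or B6 replicate 2 or 7, 1 was lower, and in the 16-library fit 20 were higher and 2 lower. Gapdh, the glyceraldehyde phosphate dehydrogenase, ran from 286 to 379 CPM (median 336) in AJ hearts, against 115 to 150.4 CPM (median 126) in B6 hearts, a log2 fold change of 1.36 ± 0.12 (adjusted p = 9.07e-15); summed with 9 near-identical pseudogenes of the table it was 1.33. The phosphoglycerate mutase genes Pgam1, which has near-identical pseudogenes, and Pgam2 rose by 0.78 ± 0.09 (adjusted p = 3.86e-10) and 0.76 ± 0.10 (adjusted p = 6.94e-09). Hk1, a hexokinase, was at 209 to 251 CPM in AJ, against 146 to 169 CPM in B6 (adjusted p = 1.2e-05). Among the glucose transporters, Slc2a1 was at 15 to 18.5 CPM in AJ, against 8.79 to 14.4 CPM in B6 (0.51, adjusted p = 0.00258) and the insulin-responsive Slc2a4 at 318 to 366 CPM in AJ, against 263 to 309 CPM in B6 (0.24, adjusted p = 0.0336), a call that was lost without AJ replicate 2 or 7 or B6 replicate 2, 3 or 5 (0.22 to 0.24, adjusted p 0.0501 to 0.0658). Pfkm, the muscle phosphofructokinase, and Hk2, the main hexokinase of muscle, did not pass (adjusted p = 0.79 and 0.627).

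Fatty acid genes that passed were lower in AJ. Of 29 genes for fatty acid uptake and oxidation, 10 were lower in AJ (all genes, 14.6%), none was higher and 19 did not pass, with a median log2 fold change of -0.14. In the 16-library fit 18 were lower and 3 higher. The count of lower members was 7 to 11 when single libraries were left out, 2 within replicates 1 to 4 and 3 within replicates 5 to 8. Decr1, the dienoyl-CoA reductase, ran from 255 to 313 CPM (median 271) in AJ hearts, against 341 to 464 CPM (median 408) in B6 hearts (-0.53 ± 0.09, adjusted p = 2.76e-06). Acot1, a cytosolic acyl-CoA thioesterase, was at 7.51 to 14.3 CPM in AJ, against 16.5 to 32.2 CPM in B6 (-1.28, adjusted p = 0.000833); summed with its near-identical neighbour Acot2 the log2 fold change was -0.67. Acaa2, the thiolase of beta-oxidation, was lower without overlap (507 ± 38.3 CPM in AJ, against 667 ± 70.7 CPM in B6; adjusted p = 5.52e-05). The entry steps did not pass: Cd36, the fatty acid translocase, had an adjusted p of 0.422, Cpt1b, the muscle carnitine palmitoyltransferase, of 0.956, and Lpl, lipoprotein lipase, of 0.174. Lpl did not pass in 26 of the other settings tried and was lower in the rest. Cpt1b shares 81.4% of its exon bases with another gene of the annotation. Of 19 PPAR and PGC-1 genes and targets, 1 was higher and 2 lower, fewer in share than the 15% and 14.6% of all genes. The higher count was 0 without AJ replicate 2, 6, 7 or 8 or B6 replicate 5 or 6, the lower count was 1 without AJ replicate 5 or B6 replicate 3 or 5, and 6 were lower in the 16-library fit. Pdk4, the pyruvate dehydrogenase kinase induced by fat, was at 586 to 1372 CPM in AJ, against 571 to 1929.6 CPM in B6 and did not pass (adjusted p = 0.69).

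**Figure D2:**
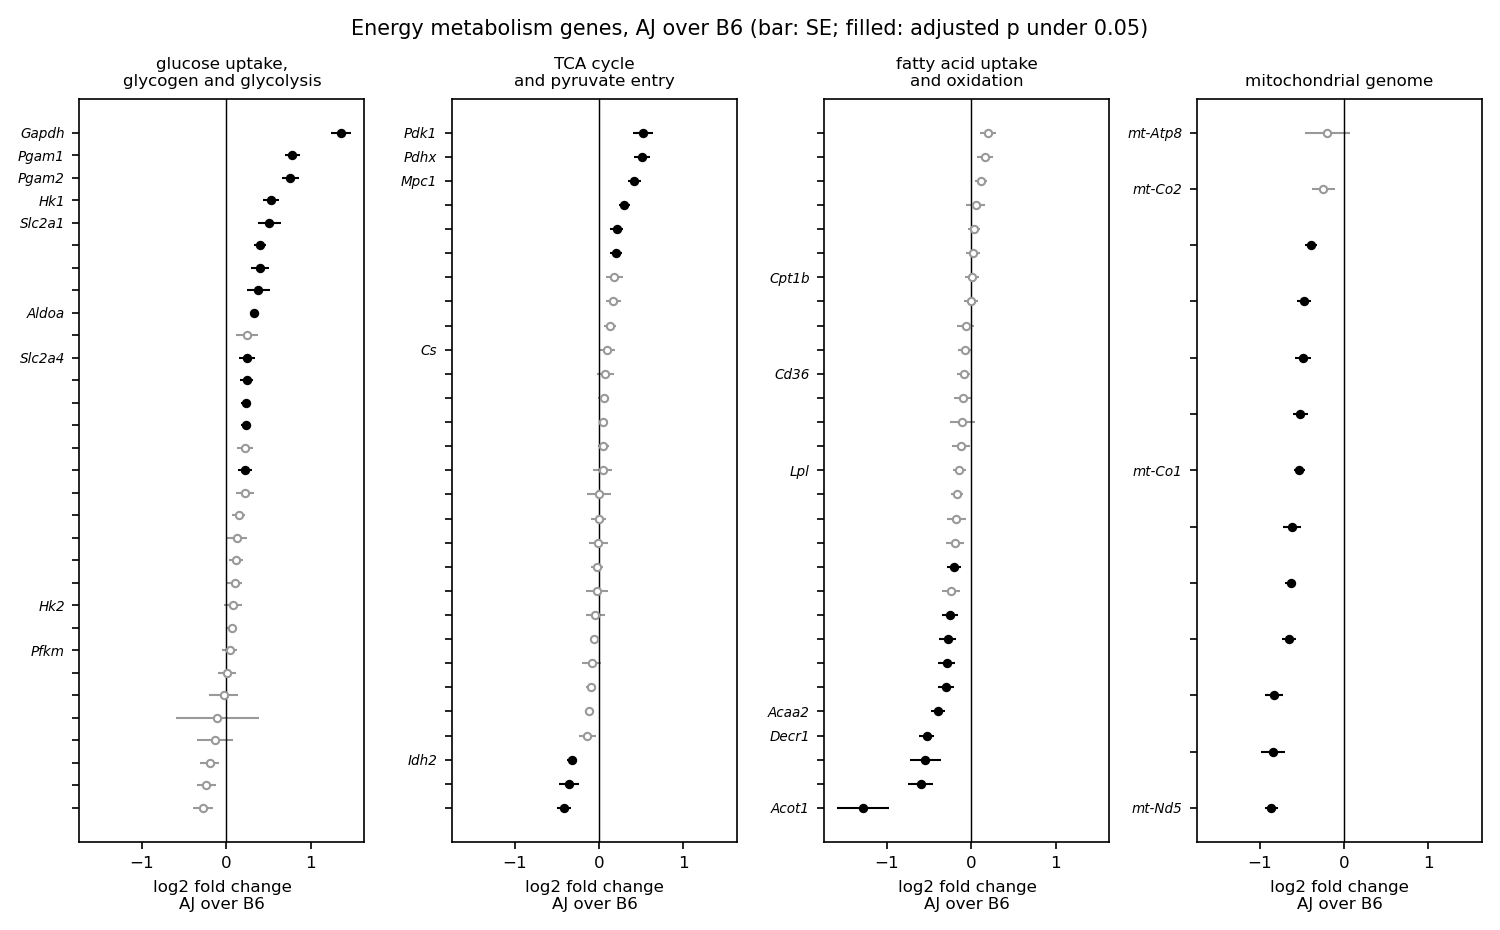
Log2 fold changes of AJ over B6 with SE for each tested gene of 4 energy lists, filled where the adjusted p was under 0.05 and named where the text gives the gene. All 14 glycolytic genes that passed lie right of 0, and all 10 fatty acid genes and 11 mitochondrially encoded genes that passed lie left of 0.

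Where pyruvate enters the mitochondrion, Mpc1, a subunit of the pyruvate carrier, was at 332 to 383 CPM in AJ, against 256 to 292 CPM in B6 (0.42 ± 0.08, adjusted p = 1.21e-05), Pdhx, a structural subunit of pyruvate dehydrogenase, rose by 0.51 ± 0.10 (adjusted p = 3.69e-05) and Pdk1, an inhibitory kinase of that complex, by 0.52 ± 0.11 (adjusted p = 0.000252). None of the 3 overlapped. In the whole list of 29 TCA cycle and pyruvate genes, 6 were higher and 3 lower (31% differed, against 29.6% of all genes), and 10 were higher and 6 lower in the 16-library fit (55.2%, against 42.2%); Idh2, a mitochondrial isocitrate dehydrogenase, was lower (1022 ± 57.6 CPM in AJ, against 1277 ± 54.2 CPM in B6; adjusted p = 1.1e-06) and Cs, citrate synthase, did not pass (adjusted p = 0.506). Cs did not pass in 26 of the other settings tried and was higher in the rest. Of 52 nuclear genes of the respiratory chain, 6 were higher and 2 lower (15.4% in all, against 29.6% of all genes). In the 16-library fit 27 were higher and 4 lower (59.6%, against 42.2% of all genes), so that the list lay below all genes in one fit and above them in the other. The higher count was 3 without AJ replicate 1, and the lower count was 1 without any single library other than AJ replicate 1, 5 or 7 or B6 replicate 2 or 4.

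Transcripts of the mitochondrial genome were lower in AJ. They took 22.1 ± 1.35% of all counts in AJ hearts (20.3 to 23.7%) and 29.2 ± 1.5% in B6 hearts (27.5 to 31.1%; n = 8 each). The difference of -7.11 percentage points had a two-sided exact permutation p of 0.0001554, the smallest that 12870 arrangements can give. Of 13 protein-coding genes, 11 were lower (all genes, 14.6%) and 2 did not pass, with a median log2 fold change of -0.53. The fall was not even: mt-Nd5, a subunit of complex I, ran from 12224 to 17381 CPM (median 14271) in AJ hearts, against 22514 to 30733 CPM (median 26448) in B6 hearts (-0.86 ± 0.08, adjusted p = 1.6e-14), mt-Co1, the catalytic subunit of cytochrome oxidase, changed by -0.53 ± 0.07 on the log2 scale (adjusted p = 8.94e-10), and mt-Co2 and mt-Atp8, another oxidase subunit and a subunit of ATP synthase, did not pass (adjusted p = 0.174 and 0.625); summed with near-identical nuclear copies, mt-Co2 was lower (-0.44, adjusted p = 1.91e-05). In bulk tissue, fewer mitochondria-rich cells and less mitochondrial RNA per cell cannot be told apart, nor can the same alternatives for any other gene here.

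More antioxidant genes were higher in AJ than lower. Of 42 antioxidant, glutathione and NRF2 target genes, 17 were higher in AJ and 5 lower (52.4% differed, against 29.6% of all genes). The median log2 fold change was 0.19, and without AJ replicates 2, 7 and 8 the higher count was 10. Glrx, glutaredoxin, was at 33 to 40.8 CPM in AJ, against 15.1 to 23.3 CPM in B6 (0.97 ± 0.10, adjusted p = 2.16e-12). Prdx2, a peroxiredoxin, was at 210.4 to 236 CPM in AJ, against 155 to 169 CPM in B6 (0.46, adjusted p = 5.88e-12), and Srxn1, the sulfiredoxin that repairs peroxiredoxins, rose by 0.58 ± 0.09 (adjusted p = 7.6e-07). None of the 3 overlapped. Nfe2l2, which encodes the factor NRF2 itself, was lower in every AJ heart (45.8 to 54.2 CPM in AJ, against 55.2 to 70.7 CPM in B6; adjusted p = 1.65e-07). The letters TGACNNNGC, which resemble the antioxidant response element, were in 1 of 13 promoters of the higher members (7.69%), against 10.1% of all promoters.

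Among 24 heat shock genes, 6 were higher and 1 lower (29.2% differed, against 29.6% of all genes), and 12 were higher and 4 lower in the 16-library fit (66.7%, against 42.2%). Hsp90aa1, the inducible HSP90, was at 248 to 319 CPM in AJ, against 135 to 229 CPM in B6 (adjusted p = 0.013), and Hspb7, a small heat shock protein of heart muscle, was at 1522 to 1767 CPM in AJ, against 1141 to 1386 CPM in B6 (adjusted p = 0.000742). Hspa1a, the inducible HSP70, was spread from 8.19 to 64.1 CPM in AJ hearts, against 4.29 to 12.3 CPM in B6 hearts (1.92 ± 0.66, adjusted p = 0.021), and the call was lost without AJ replicate 7 (1.67, adjusted p = 0.0548); summed with the near-identical Hspa1b it was 1.90. Of 24 sterol and fatty acid synthesis genes, 6 were higher and 1 lower (29.2% differed), among the higher ones Cyp51, a sterol demethylase (0.66, adjusted p = 1.21e-05). The lower count was 0 without AJ replicate 5 or B6 replicate 3 or 5, and the 16-library fit gave 10 higher and 2 lower. In insulin and IGF signalling 3 of 23 genes were higher and 6 lower, against 15% and 14.6% of all genes. The higher count was 1 without AJ replicate 2, 5 or 8, 2 without any other single library and 0 without AJ replicates 2, 7 and 8 together, and it was 6 in the 16-library fit. Igf2 and Igf1, the insulin-like growth factors, were lower in every AJ heart: Igf2, which shares 62.8% of its exon bases with another gene of the annotation, was at 16.3 to 21.5 CPM in AJ, against 26.5 to 47.4 CPM in B6 (adjusted p = 2.64e-09) and Igf1 at 6.89 to 11.5 CPM in AJ, against 12.3 to 17.7 CPM in B6 (adjusted p = 4.6e-05). Tbc1d4, the insulin-controlled brake on glucose transporter traffic, was also lower (-0.48, adjusted p = 0.000408).

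Interferon-stimulated genes were lower in AJ. Of 40 members, 20 were lower (all genes, 14.6%), 1 was higher (all genes, 15%) and 19 did not pass, with a median log2 fold change of -0.39. Rsad2, which encodes the antiviral enzyme viperin (ENSMUSG00000020641, chromosome 12, 26442753 to 26456452, minus strand), ran from 6.48 to 11 CPM (median 7.57) in AJ hearts, against 18.7 to 29.5 CPM (median 25.5) in B6 hearts, a log2 fold change of -1.68 ± 0.17 (adjusted p = 5.38e-12). Cmpk2, the nucleotide kinase gene beside it (ENSMUSG00000020638, chromosome 12, 26469204 to 26479835, plus strand), ran from 3.45 to 5.76 CPM (median 4.74) in AJ hearts, against 8.31 to 12.8 CPM (median 11.4) in B6 hearts (-1.20 ± 0.12, adjusted p = 8.49e-13). Ifit3, which binds viral RNA complexes (ENSMUSG00000074896, chromosome 19, 34583531 to 34588731, plus strand), ran from 1.4 to 6.01 CPM (median 2.38) in AJ hearts, against 8.42 to 12.7 CPM (median 10.8) in B6 hearts (-1.93 ± 0.25, adjusted p = 3.58e-09); summed with the near-identical Ifit3b the log2 fold change was -1.53. Oas2, an oligoadenylate synthetase that senses double-stranded RNA, was at 3.3 to 7.96 CPM in AJ, against 10.8 to 22.4 CPM in B6 (-1.55 ± 0.22, adjusted p = 3.91e-08). All 4 were below B6 in every AJ heart, as were 4 other members that differed (all genes, 6.67%).

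**Figure D3:**
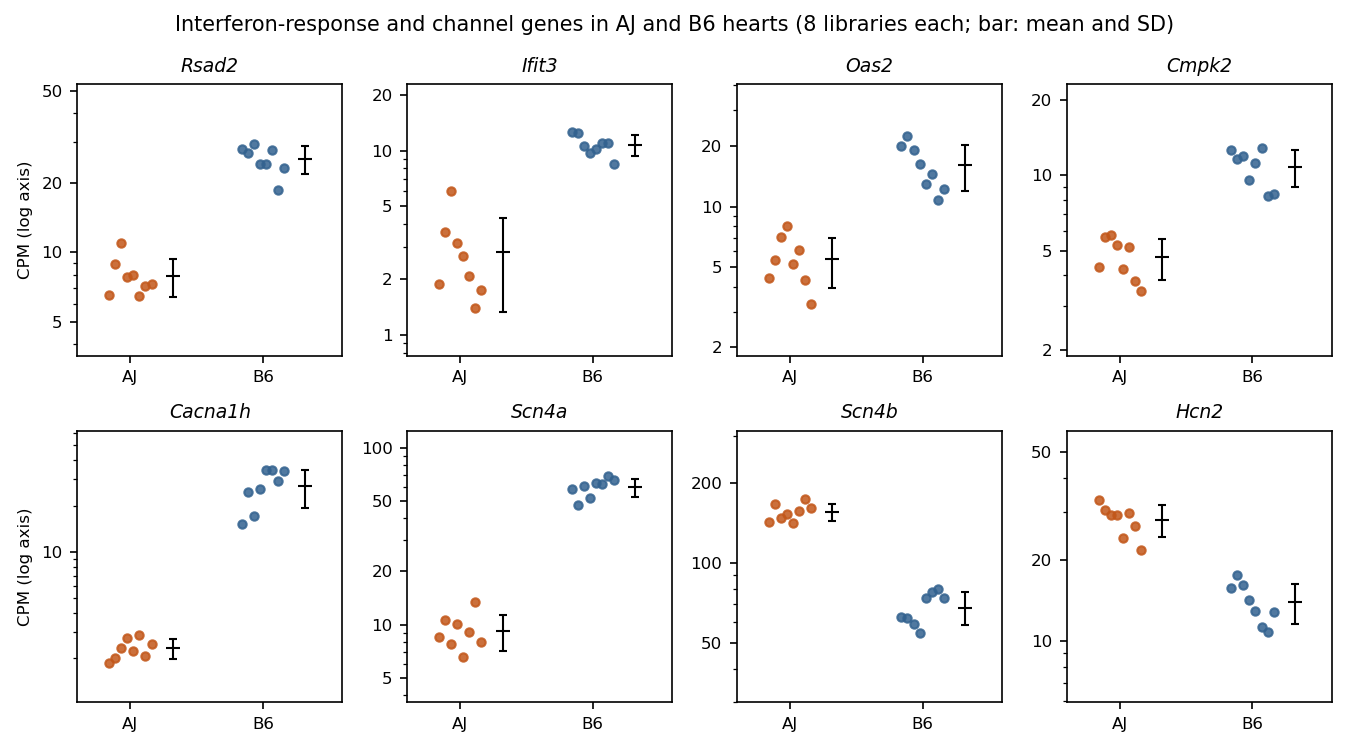
CPM of 4 interferon-response genes and 4 channel genes in each AJ and B6 library on log axes, with points for libraries and bars for mean and SD. Rsad2, Ifit3, Oas2, Cmpk2, Cacna1h and Scn4a were lower in every AJ heart, and Scn4b and Hcn2 were higher in every AJ heart.

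Regulators of the pathway were mixed. Irf7, the factor that amplifies interferon, was lower (2.66 to 7.22 CPM in AJ, against 6.81 to 11.3 CPM in B6; -1.07, adjusted p = 2.72e-05), as was Ddx58, the RNA sensor RIG-I (-0.37, adjusted p = 0.00154). Eif2ak2, the RNA-activated kinase PKR, was the member that was higher (20.5 to 26.8 CPM in AJ, against 14.7 to 19.8 CPM in B6; adjusted p = 1.45e-06). The count of lower members was 19 to 24 when single libraries were left out, with 24 without AJ replicate 3, which had the highest Ifit3, Rsad2 and Gbp5 of the AJ hearts. It was 7 within replicates 1 to 4 and 15 within replicates 5 to 8. Among 15 immunity-related GTPases, 1 was higher and 3 were lower (26.7% differed, against 29.6% of all genes), and 6 were lower without AJ replicate 3. Without B6 replicate 5, 2 were higher, and in the 16-library fit 1 was lower.

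The promoters of 3 members are shown because a motif of the interferon response recurs in them. The letters GAAA, any 2 bases and GAAA again, or TTTC, any 2 bases and TTTC on the other strand, resemble the interferon-stimulated response element bound by IRF factors. They are in capitals in the 250 bases before the RefSeq start (GRCm38.p6, transcript direction) of Rsad2 (chr12:26456453-26456702, minus strand), Ifit3 (chr19:34583279-34583528, plus strand) and Ifit1 (chr19:34640639-34640888, plus strand), which binds viral RNA and was lower by the same test (-0.99 ± 0.22, adjusted p = 0.000244).
Rsad2: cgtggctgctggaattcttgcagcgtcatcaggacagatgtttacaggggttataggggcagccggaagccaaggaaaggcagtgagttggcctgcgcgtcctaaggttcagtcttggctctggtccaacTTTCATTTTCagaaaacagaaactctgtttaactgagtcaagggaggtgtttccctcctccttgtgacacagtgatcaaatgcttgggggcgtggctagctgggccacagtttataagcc
Ifit3: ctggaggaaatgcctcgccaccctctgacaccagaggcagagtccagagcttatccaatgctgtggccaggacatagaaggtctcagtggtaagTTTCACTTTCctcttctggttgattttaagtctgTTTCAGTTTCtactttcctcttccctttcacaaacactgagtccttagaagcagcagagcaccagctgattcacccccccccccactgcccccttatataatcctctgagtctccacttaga
Ifit1: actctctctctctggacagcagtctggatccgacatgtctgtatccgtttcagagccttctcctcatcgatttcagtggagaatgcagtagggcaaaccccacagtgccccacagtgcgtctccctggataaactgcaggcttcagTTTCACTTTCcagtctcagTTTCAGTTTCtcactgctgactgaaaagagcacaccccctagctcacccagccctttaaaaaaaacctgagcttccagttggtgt
Of the 20 members that were lower in AJ, 14 had a promoter in the table, and 7 of them (50%) held these letters, against 3.04% of all 27025 promoters. Interferon genes are known for this motif whether or not they differ between strains, and no difference of AJ sequence was read.

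Genes of antigen presentation did not follow the interferon genes as a group. Of 23 class I and antigen processing genes, 5 were higher in AJ and 6 lower (47.8% differed, against 29.6% of all genes). H2-K1, the class I heavy chain, ran from 27 to 84.4 CPM (median 34.2) in AJ hearts, against 85.6 to 132 CPM (median 123) in B6 hearts (-1.43 ± 0.23, adjusted p = 1.74e-06), and the highest AJ value, that of replicate 3, came close to the lowest B6 value. H2-D1, another class I chain, was lower with overlap (-0.64, adjusted p = 0.00703). Psmb10, a subunit of the immunoproteasome, and Tap2, a subunit of the peptide transporter, were higher in every AJ heart (0.60 and 0.51 on the log2 scale, adjusted p of 6.33e-05 and 9.09e-05). H2-T10 and H2-T22, a near-identical pair of class I genes, moved in opposite directions (3.18 and -3.82). Their summed counts were lower by 0.57 on the log2 scale (adjusted p = 0.00361), so the rise of H2-T10 alone is uncertain. The haplotypes of this region differ between the strains, and reads of AJ alleles that fail to match the B6 reference would lower these counts, which was not tested. Of 9 class II genes, 2 were lower and none higher (22.2% differed, against 29.6% of all genes). Without AJ replicate 3, 5 were lower, and in the 16-library fit 1 was higher. Of 20 complement genes, 4 were higher (2 without AJ replicate 3) and 3 lower (1 without AJ replicate 2). In all 35% of them differed, against 29.6% of all genes. Masp1, a protease that starts the lectin pathway, rose by 0.65 ± 0.14 (adjusted p = 0.000269).

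**Figure D4:**
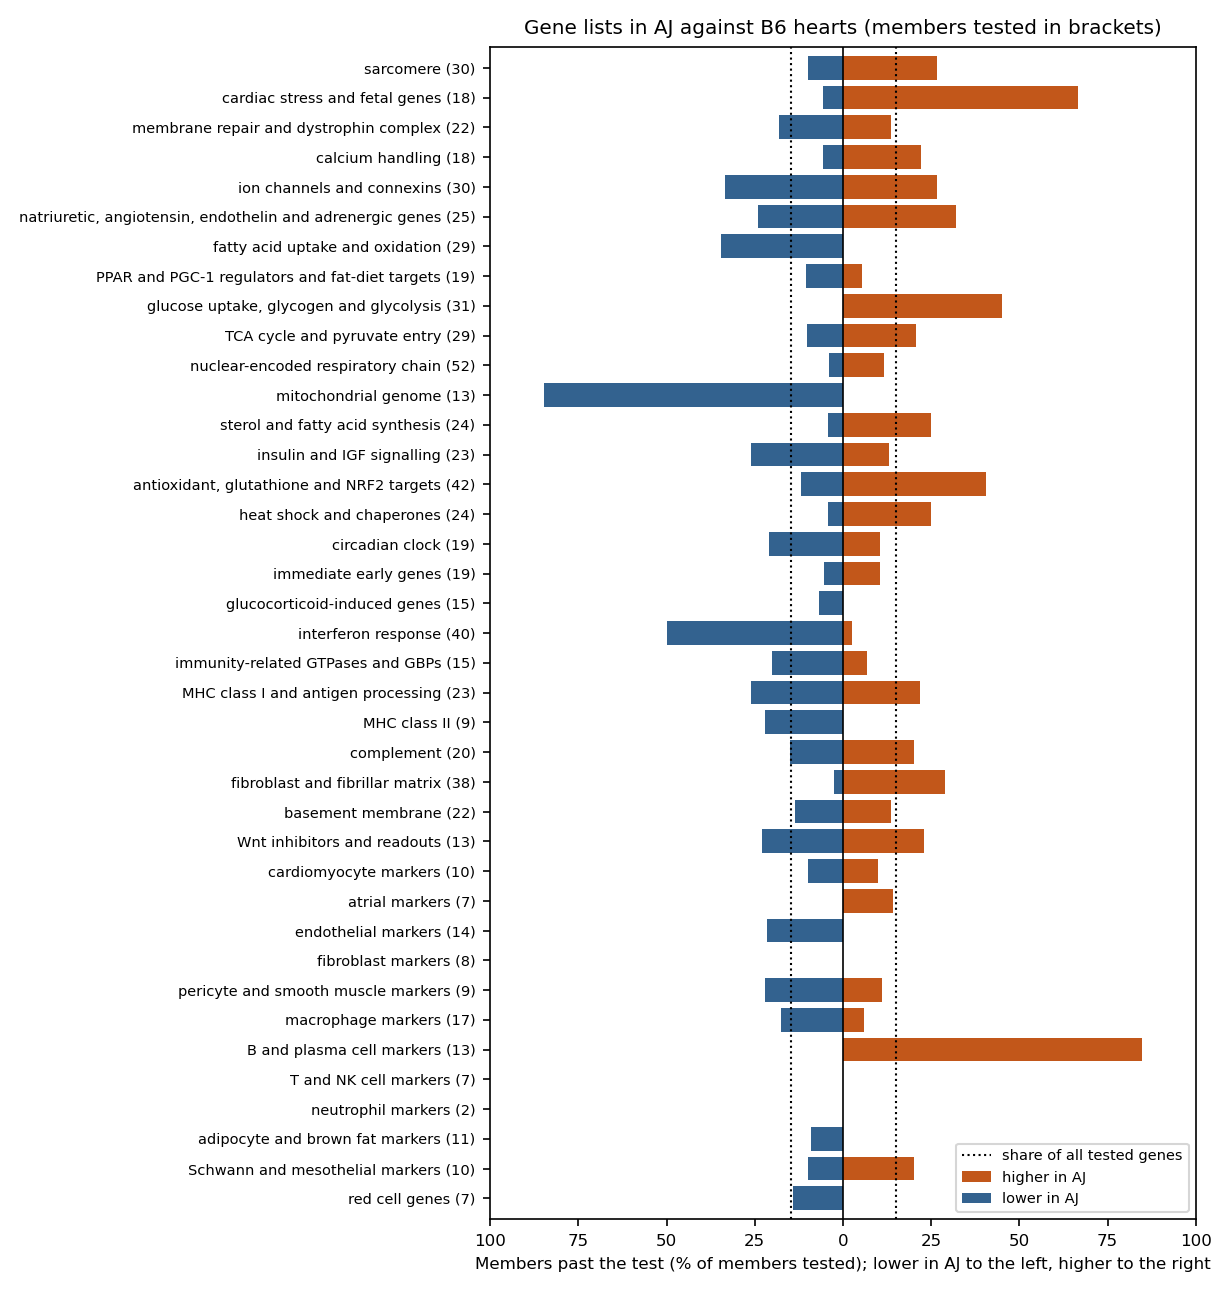
Percent of the tested members of each gene list that were lower in AJ (bars to the left) or higher in AJ (bars to the right), with dotted lines at the shares over all genes, 14.6% lower and 15% higher. Glycolysis and the stress genes extend to the higher side, and the mitochondrial genome and interferon genes to the lower side.

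Some matrix genes differed, but the main fibrosis genes did not pass in the fit of all 63 libraries. Of 38 fibrillar matrix genes, 11 were higher and 1 lower (31.6% differed, against 29.6% of all genes). The higher count was 7 without B6 replicate 5, and the 16-library fit gave 20 higher and 2 lower (57.9%, against 42.2% of all genes). Thbs4, a thrombospondin of the loaded heart, ran from 13.7 to 19.8 CPM (median 17.1) in AJ hearts, against 4.06 to 6.32 CPM (median 4.58) in B6 hearts (1.82 ± 0.12, adjusted p = 7.47e-21). Cilp, a matrix protein made by cardiac fibroblasts, was lower at 4.47 to 7.23 CPM in AJ, against 11.8 to 20.4 CPM in B6 (-1.38 ± 0.23, adjusted p = 2.47e-06). Neither gene overlapped. Fn1, fibronectin, was higher with overlap (0.70, adjusted p = 0.0159). The fibrosis genes Col1a1, Col3a1 and Postn (collagens I and III and periostin) had log2 fold changes of 0.33, 0.18 and -0.00039 and did not pass (adjusted p of 0.202, 0.644 and 0.999). Col3a1 and Postn passed in none of the 29 other settings tried. Col1a1 did not pass in 26 of them and was higher in the rest.

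In the basement membrane list, 3 of 22 genes were higher and 3 lower (27.3% differed, against 29.6% of all genes). In the 16-library fit 7 were higher and 6 lower (59.1%, against 42.2% of all genes). Col4a6, a chain of collagen IV, was nearly silent in AJ, with 34 counts over all 8 AJ libraries and 1159 over all 8 B6 libraries (0 to 0.251 CPM in AJ, against 4.51 to 7.04 CPM in B6; -5.41 ± 0.25, adjusted p = 1.97e-27). Lama5, a laminin chain, ran from 91.3 to 115 CPM (median 108) in AJ hearts, against 224 to 269.5 CPM (median 240.1) in B6 hearts (-1.18 ± 0.12, adjusted p = 1.74e-12). Both were thus lower in every AJ heart. Secreted Wnt inhibitors also split: Wif1 ran from 13.3 to 17.5 CPM (median 16.5) in AJ hearts, against 3.58 to 5.51 CPM (median 4.46) in B6 hearts (1.83 ± 0.16, adjusted p = 3.59e-15), and Frzb was at 13.6 to 17.7 CPM in AJ, against 3.69 to 6.21 CPM in B6 (1.72 ± 0.16, adjusted p = 6.39e-14). Sfrp5, an inhibitor of the same family as Frzb, was lower at 0.431 to 1.15 CPM in AJ, against 2.31 to 8.23 CPM in B6 (-2.94 ± 0.26, adjusted p = 1.4e-14). Axin2, a target induced by Wnt signalling, was lower (-0.51, adjusted p = 0.00899). In all 3 of 13 Wnt genes were higher and 3 lower (46.2% differed, against 29.6% of all genes), and 5 were lower in the 16-library fit.

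Markers of the cells in the tissue were read beside these lists, against the 15% of all genes that were higher and the 14.6% that were lower. None of 8 fibroblast markers passed, but 4 were higher and 1 lower in the 16-library fit. Of 10 cardiomyocyte markers 1 was higher (0 without AJ replicate 1 or 7 or B6 replicate 2 or 4, 2 in the 16-library fit) and 1 lower, Actc1 (2 in the 16-library fit). Of 14 endothelial markers 3 were lower and none higher, including Cdh5, the endothelial cadherin (153 ± 6.82 CPM in AJ, against 193 ± 10.9 CPM in B6; adjusted p = 1.62e-05), and 9 were lower in the 16-library fit. Of 17 macrophage markers 1 was higher (2 without AJ replicate 2 or 8) and 3 lower (6 in the 16-library fit), with Ccr2, a receptor of recruited monocytes, lower (-0.99, adjusted p = 0.00889) and Cd68, a lysosomal protein, higher (0.56, adjusted p = 0.0121; 0.41 and adjusted p = 0.0741 without AJ replicate 7). No T or NK cell marker of 7 passed, 1 was lower without B6 replicate 5, and 2 were higher and 1 lower in the 16-library fit. No neutrophil marker of 2 passed, and of 11 adipocyte markers 1 was lower. The 7 T and NK cell and 2 neutrophil markers tested, of 12 and 7 listed, all averaged under 1 CPM in AJ and in B6. At such levels a difference in these cells could hardly be seen.

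The smallest marker counts turned on single libraries. Of 9 pericyte and smooth muscle markers 1 was higher and 2 lower; the lower count was 0 without AJ replicate 3 and 1 without any other single library except AJ replicate 4, 7 or 8 or B6 replicate 2 or 7. Of 10 Schwann and mesothelial markers 2 were higher, or 1 without AJ replicate 3, 5 or 6 or B6 replicate 1, 2, 3 or 4. In that list 1 was lower, or 0 in the 16-library fit and without any single library except AJ replicate 4 or 6 or B6 replicate 2, 3 or 5. Of 7 red cell genes 1 was lower, or 0 without B6 replicate 3 and 2 without AJ replicate 5 or B6 replicate 1 or 7. None of the red cell genes was higher, but 1 was without AJ replicate 4 or B6 replicate 5 and 2 were without B6 replicate 6, and the 16-library fit gave 3 higher and 2 lower. Of 7 atrial markers 1 was higher, or 2 without AJ replicate 2 or B6 replicate 8, and 0 in the 16-library fit and without any other single library except AJ replicate 8 or B6 replicate 7.

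B cell markers differed widely among the AJ hearts themselves. Of 13 tested, 11 were higher in AJ (all genes, 15%) and none lower, yet all 11 overlapped. The summed level was 6.92 to 248.5 CPM in AJ, against 7.86 to 42.2 CPM in B6. Igkc, the kappa light chain constant gene, ran from 0.503 to 57.9 CPM (median 19.1) in AJ hearts, against 0.307 to 7.57 CPM (median 0.967) in B6 hearts (3.59 ± 0.82, adjusted p = 0.000435). AJ replicates 2, 7 and 8 lay at 0.918, 1.85 and 0.503 CPM, within the B6 range, and the other 5 AJ hearts were higher than these. The count of higher members was 7 without AJ replicate 3 and 3 within either replicates 1 to 4 or replicates 5 to 8. The part of B cell RNA in the other results was not tested. Without AJ replicates 2, 7 and 8, 11 stress genes and 10 glycolytic genes were higher and 10 fatty acid genes and 14 interferon genes were lower in AJ.

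Clock genes carry 1 exceptional library. In B6 replicate 7, Dbp, an output gene of the circadian clock, was at 81.4 CPM, against 1.38 to 3.78 CPM in the other 7 B6 hearts, while AJ hearts had 8.06 to 21.9 CPM. The log2 fold change of Dbp was 0.28 ± 0.66 (adjusted p = 0.802), but 2.44 without B6 replicate 7 (adjusted p = 0.00174). Of 19 clock genes, 2 were higher and 4 lower, against 15% and 14.6% of all genes. The higher count was 5 without that library, and the lower count was 2 without AJ replicate 1 or B6 replicate 1 and 1 with limma on the deposited log2 values, where the higher count was 4. Hlf, a related output gene, was lower (-0.61 ± 0.21, adjusted p = 0.0221), and the call was lost without B6 replicate 7 (-0.25, adjusted p = 0.311) or AJ replicate 3 (-0.55, adjusted p = 0.0524). Nr1d1, the repressor REV-ERB alpha, was at 80.8 to 103 CPM in AJ, against 39.7 to 97.3 CPM in B6 (0.79, adjusted p = 0.00509). Time of tissue collection is not in the labels. Of 19 immediate early genes, 2 were higher and 1 lower (15.8% differed, against 29.6% of all genes). The higher count was 1 without any single library other than AJ replicate 1 or 5 or B6 replicate 4, 6 or 8, and 0 within replicates 1 to 4 and within replicates 5 to 8. Nr4a3, an orphan nuclear receptor induced by stimulation, was not in this list and is not among these counts. It was at 21 to 68.9 CPM in AJ, against 3.16 to 15.4 CPM in B6 (2.55 ± 0.40, adjusted p = 8.04e-07).

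Several of the largest single differences were outside these lists. Fmn1, an actin-nucleating formin (ENSMUSG00000044042, chromosome 2, 113327736 to 113716767, plus strand), ran from 82 to 108 CPM (median 94.1) in AJ hearts, against 1.83 to 3.84 CPM (median 2.98) in B6 hearts (5.0 ± 0.20, adjusted p = 3.72e-29). Baiap2l1, an adaptor that bends membranes (ENSMUSG00000038859, chromosome 5, 144264526 to 144358112, minus strand), ran from 149 to 189 CPM (median 181) in AJ hearts, against 12.6 to 15.3 CPM (median 13.6) in B6 hearts (3.68 ± 0.15, adjusted p = 6.68e-29). Neither gene overlapped between the strains. Gcnt1, a glycosyltransferase, and Ush1c, a scaffold of sensory hair cells, rose by 2.66 ± 0.16 (adjusted p = 3.53e-21) and 2.60 ± 0.13 (adjusted p = 2.39e-25). Fam46b and Pianp were higher by 3.97 and 3.60 on the log2 scale at low levels. Atp5g2 had a log2 fold change of 4.14 that was 0.08 (adjusted p = 0.244) when summed with its near-identical copy, and Abhd1 (3.66) shares 89.6% of its exon bases with Preb on the other strand, so both are uncertain.

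On the lower side, Pttg1, which encodes securin (ENSMUSG00000020415, chromosome 11, 43420250 to 43426251, minus strand), ran from 1.35 to 2.21 CPM (median 1.95) in AJ hearts, against 36 to 43.6 CPM (median 40.1) in B6 hearts (-4.41 ± 0.15, adjusted p = 7.64e-35). Cyfip2, a subunit of the WAVE actin regulator (ENSMUSG00000020340, chromosome 11, 46193850 to 46312859, minus strand), ran from 18.8 to 26.2 CPM (median 20.7) in AJ hearts, against 225 to 249 CPM (median 238) in B6 hearts (-3.47 ± 0.15, adjusted p = 1.52e-27). Il15, a cytokine that sustains NK and memory T cells (ENSMUSG00000031712, chromosome 8, 82331637 to 82403222, minus strand), ran from 1.94 to 2.85 CPM (median 2.29) in AJ hearts, against 12.8 to 18.9 CPM (median 16.3) in B6 hearts (-2.77 ± 0.14, adjusted p = 2.66e-26). None of the 3 overlapped. Rab6b, a Golgi GTPase, Cubn, the receptor cubilin, and Sorcs2, a sorting receptor, were lower, with log2 fold changes of -3.49, -3.16 and -2.66. Gvin1, an interferon-inducible GTPase, had a log2 fold change of -7.34, which was -1.13 when summed with its near-identical copies. In absolute CPM the largest gains besides Acta1 and Ankrd1 included Ckm, the muscle creatine kinase (1585 to 1790.4 CPM in AJ, against 1138 to 1258 CPM in B6; adjusted p = 8.81e-09) and Aldoa, the aldolase (2055 to 2322 CPM in AJ, against 1637 to 1858 CPM in B6; adjusted p = 4.04e-07). Hc, the complement C5 gene known to be defective in the AJ strain, was below the count minimum and was not tested.

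The other 6 strains, on the same diet, place each difference by which of AJ and B6 they lie nearer to. Of the 2295 genes that differed without overlap, 189 (8.24%) had none of the 6 other strains nearer to AJ, so that AJ stood apart. All 6 were nearer to AJ in 128 (5.58%), so that B6 stood apart. Nppb averaged 289 CPM in AJ, 56.1 to 111 CPM in the other 6 strains and 68.9 CPM in B6, and no other strain reached the AJ level. Acta1 averaged 1628 CPM in AJ and 126 CPM in B6, but NZO was higher still at 1825 CPM, followed by NOD at 577 CPM, 129 at 350 CPM, Cast at 303 CPM, PWK at 243 CPM and WSB at 234 CPM. Baiap2l1 averaged 175 CPM in AJ, 7.93 to 21.3 CPM in the other 6 strains and 13.7 CPM in B6. For Pttg1 and Ifit3 all 6 other strains were nearer to AJ: Pttg1 averaged 1.14 to 2.62 CPM in them, 1.89 CPM in AJ and 40.3 CPM in B6. Gapdh had 3 of the 6 nearer to AJ, with the highest mean, 480.5 CPM, in PWK.

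**Figure D5:**
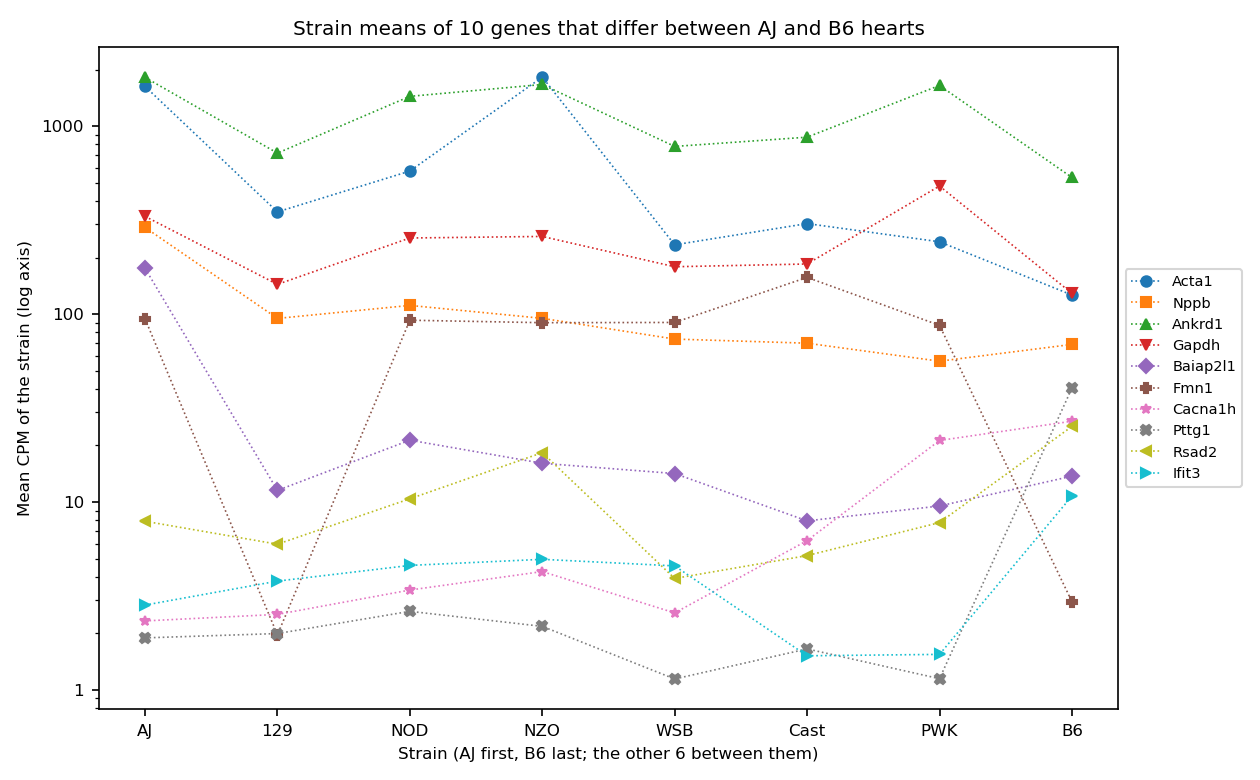
Mean CPM of 10 genes in each of the 8 strains on a log axis, with AJ first and B6 last. A dotted line joins the 8 strain means of each gene. AJ stands apart for Nppb and Baiap2l1 and B6 for Pttg1 and Ifit3, and Acta1 is highest in NZO and AJ.

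The differences were spread over the genome. By chromosome the share of tested genes that differed ran from 23.1% on X (119 of 516) to 36.6% on 13 (206 of 563), and 12 of 15 genes of the mitochondrial genome differed. In 236 windows of 10 Mb the share was 9.38 to 55.9% with a median of 29.2%. The highest share was on chromosome 8 between 30 and 40 Mb (19 of 34), where Rnf122, a ubiquitin ligase, rose by 1.37 ± 0.12 (adjusted p = 3.04e-15) and Fut10, a fucosyltransferase, fell (-0.91 ± 0.13, adjusted p = 4.06e-08). Next came chromosome 12 between 20 and 30 Mb (16 of 30, 53.3%), which holds the neighbours Rsad2 and Cmpk2 and also Iah1, an esterase (-1.80, adjusted p = 3.74e-17), and Colec11, a collectin (-1.73, adjusted p = 3.35e-16). Rsad2 and Cmpk2 thus lie in a region where many genes differ. On chromosome 13 between 60 and 70 Mb (38 of 72, 52.8%), Fbp2, the muscle fructose bisphosphatase, was at 5.67 to 9.55 CPM in AJ, against 20.2 to 31.3 CPM in B6 (-1.77 ± 0.21, adjusted p = 2.87e-10), and Cdc14b, a phosphatase, was higher (1.28 ± 0.11, adjusted p = 7.08e-16). The lowest shares were on chromosome 14 up to 10 Mb (3 of 32) and chromosome 2 between 10 and 20 Mb (6 of 51, 11.8%), the window that holds Cubn.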

How the data were processed

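Heart RNA of 63 mice was sequenced after polyA selection, per the labels' protocols. The deposited table holds expected counts, estimated counts per gene that the authors made on GRCm38 and did not normalise, per the submitters' processing notes. In turn, the deposited log2 values are the authors' variance-stabilised counts from DESeq2, used only as an alternative. As to aligner, counter and strand, these were not given in the sources used here. GRCm38 is the genome of B6, and loss of AJ reads to variants was not tested. Of the counts, 18.4% were not whole, and all were rounded. Of 19220 genes, 16425 passed a minimum count of 10 (filterByExpr) and 2795 did not. R 4.3.3 with edgeR 4.0.16, limma 3.58.1 and DESeq2 1.42.0 was used. All 63 libraries entered 1 robust quasi-likelihood fit with TMM scaling and a coefficient per strain (55 residual degrees of freedom), and AJ minus B6 was its contrast. The fit was tested on simulated data. Single libraries, gene filters, scalings, tools and replicate sets were varied. Promoters are from RefSeq (GRCm38.p6), and near copies and overlapping genes were found in GENCODE M21.

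Genes were named by rule: the 12 largest log2 fold changes and 8 largest CPM differences in each direction without overlap, up to 4 members of each list in each direction, up to 4 genes in extreme 10 Mb windows, and Nnt, Glo1, Dysf, Cs, Hc, Nppa, Nppb, Myh6 and Myh7. A further 31 genes, among them Nmrk2, Xirp1, Enah, Dbp, Col4a6 and Sfrp5, were chosen from the lists after their values were seen. A few named genes were left out of the text. The strains and lists were chosen with earlier results of these data known. Nothing but the titles says that replicates are separate mice, so p-values measure the spread between samples. In the fit of all 63 libraries, that spread was pooled over all the strains and not taken from AJ and B6 alone.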

Additional observations from a re-analysis of the deposited data

Results flagged for a closer look

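In 276 groups of 8 libraries, AJ and B6 taken apart for the 138 genes given with values, 18 had a highest or lowest library set apart from the rest by more of the group's range than Dixon's 95% critical value; chance gives about 1 in 20. Among AJ hearts, replicate 3 was low for Cyp51 (17.3 CPM), Kcnip2 (137 CPM), Lama5 (91.3 CPM) and Nnt (627 CPM) and high for Gvin1 (2.52 CPM) and Nmrk2 (26.3 CPM). Replicate 1 of AJ was low for Frzb (13.6 CPM), replicate 2 was high for Slc2a4 (366 CPM), replicate 7 for Cd68 (11.3 CPM) and replicate 8 for Hcn4 (5.60 CPM). Among B6 hearts, replicate 7 was high for the clock genes Dbp (81.4 CPM), Hlf (56.8 CPM) and Nr1d1 (97.3 CPM) and low for Cdh5 (169 CPM) and Hsp90aa1 (135 CPM). Replicate 2 of B6 was high for Igkc (7.57 CPM) and low for Sgca (59.8 CPM), and replicate 1 was high for Ifit1 (8.57 CPM).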

How the results depend on the processing

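Summing near copies reversed H2-T10 (-0.57). In the other settings tried, no gene that differed both there and in the fit of all 63 libraries changed sign. Leaving out 1 library gave 4500 to 4670 genes. DESeq2's Wald test gave 5021, limma on the deposited log2 values 4860, and DESeq2 size factors in edgeR 4866. A fit of the 16 AJ and B6 libraries alone gave 6932, and one without AJ replicates 2, 7 and 8 gave 3947. Among genes averaging 1 or more log2 CPM, those at least 2-fold higher and lower numbered 146 and 144, and on the deposited log2 values 83 and 85. Within replicates 1 to 4, 2416 genes differed (1182 higher, 1234 lower), and within replicates 5 to 8, 2383 (1173 higher, 1210 lower), each with 4 libraries a strain. A term for these sets, in a fit of the 16 libraries alone, gave a higher count of 3728, against 3639 in that fit without the term; the last 3 fits were chosen after seeing the data. Over all genes tested, deviations from the strain mean correlated by -0.022 to 0.15 between same-numbered AJ and B6 libraries. On autosomal genes alone the range was -0.079 to 0.108. For replicates 6 and 7 (0.13 and 0.15) the same number was the best match in both directions. The labels give no pairs, so the libraries were taken as unpaired, though low correlations cannot exclude pairing. The replicate block, fitted on the 16 libraries alone, gave 6918 genes, against 6932 without it. With the block 3 of 13 B cell markers were higher, against 10 in the same fit without it and 11 in the fit of all libraries, and Igkc did not pass (3.30, adjusted p = 0.0611). Of 211 named genes past the test, 105 passed in every setting run with the same sign and 33 were lost without some single library. The lowest counts set the precision: the 34 AJ counts of Col4a6 make its fold change uncertain. The causes of these changes were not tested.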
